A study of Mus musculus with 6 samples.

Results

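The transcripts described here encode the enzymes that turn acetyl-CoA into fatty acids, lengthen and desaturate them, and join them to glycerol as triglyceride, with the regulators of that route. They are 31 genes chosen by symbol from a fixed list, out of 18720 rows in the deposited tables. All 31 have a row, and all 31 passed the filter on low values (a mean value of 10 or more in the 6 libraries). Liver poly(A) RNA was sequenced from male C57BL/6 mice that were 1 year old and fed a high-fat diet. The R159 group (3 libraries) received R159, a compound known here by its code name only, and the vehicle group, labelled Veh (3 libraries), received its vehicle. Both were injected into the peritoneum 2 times a week for 12 weeks, and the diet, age, sex and strain are shared by both groups. The series title names an arm of signalling from gp130, a cytokine receptor subunit, and the contrast examined is drug against vehicle on this diet.

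The liver makes fatty acids from citrate that leaves the mitochondrion: citrate is cleaved to acetyl-CoA, carboxylated to malonyl-CoA, and built into palmitate by fatty acid synthase. Elongases and desaturases of the endoplasmic reticulum then make longer and unsaturated acyl chains, which are placed on glycerol-3-phosphate in turn by acyltransferases, a phosphatase and a last acyltransferase. Transcription of many of these genes in liver is driven by SREBP-1c under insulin and by ChREBP under glucose, and is known to vary with feeding.

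The labels do not state that each library is a separate animal, so the p-values describe the scatter among these libraries only. Values are normalised estimated counts, as deposited, and log2 fold changes are R159 minus vehicle on the log2(value + 1) scale. A gene is called where limma's p, adjusted by Benjamini-Hochberg over all 16594 genes tested, is under 0.05. Estimated depth was 51.3 to 55.7 M reads in R159 and 66.0 to 76.7 M reads in vehicle. Hepatocyte markers were high throughout, with Alb at 2700000 to 4790000 in every library. In bulk tissue, fewer cells of a type and less RNA per cell cannot be told apart. Transcript length moved with the groups, long transcripts being lower in R159, and the members are longer than most (median 3840 nt against 2842 nt for the tested genes with a known length). Each member called below is therefore given with its value after the length trend was removed, and so are the named genes of further lists that lost their call by it.

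Vehicle replicate 3 stood apart from the other vehicle libraries in these genes. Of the 31 members, 24 had their highest value of the 6 libraries in vehicle replicate 3, where 20.4% of all genes tested did. In 13 members its value was at least 2 times the mean of vehicle replicates 1 and 2, which held for 2.43% of all genes. The members' median deviation from the 6-library mean was 0.65 on the log2 scale in vehicle replicate 3, and -0.10 and -0.23 in vehicle replicates 1 and 2. In the R159 libraries it was -0.08, -0.04 and 0.12. The median SD of the log2 values over the vehicle libraries was 0.50 for the members and 0.20 for all genes, while over the R159 libraries it was 0.36 and 0.37. The labels give no feeding state, date or batch for any library, and what sets this library apart was not tested. Members that were called, or whose value moved by over 1.5 times, are given with and without it.

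**Figure D1:**
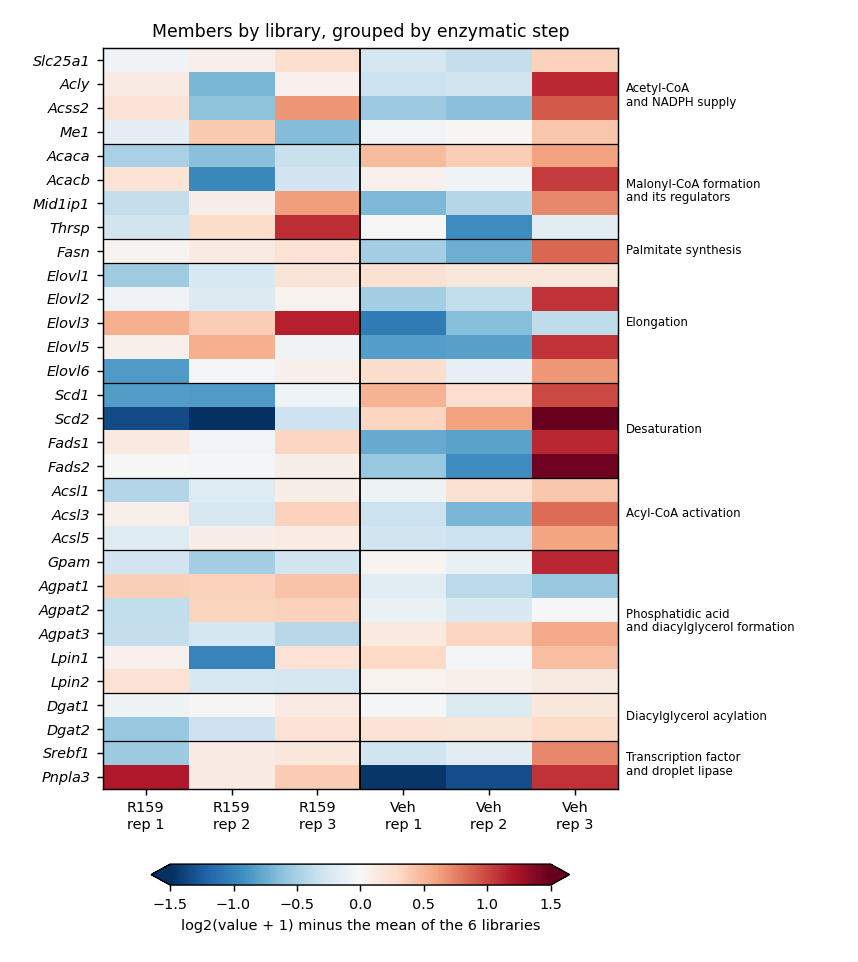
Deviation of each of the 31 members (rows, grouped by enzymatic step) from its mean over the 6 libraries (columns), as log2(value + 1), with colours held at 1.5 beyond the ends of the scale. The column of vehicle replicate 3 is red in most rows, with 28 of 31 members above their own mean there, against 11 and 9 in vehicle replicates 1 and 2.

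limma called 4 members lower and 2 higher in R159, and 25 members were not called. Acaca, Scd1, Scd2 and Agpat3 fell, and Elovl3 and Agpat1 rose. Among all genes tested 14.2% were called lower and 12.8% higher, and 27% in either direction, so the members' 6 of 31 (19.4%) lies under the background. Groups did not overlap in 7 members, against 46.2% of all genes: 5 lay wholly below vehicle (23.6% of all genes did) and 2 wholly above (22.5%). The members' median log2 fold change was -0.14 and that of all genes 0.00069. Without vehicle replicate 3 the called members were 2 lower (Acaca and Scd2) and 3 higher (Elovl3, Elovl5 and Fads1), where 6.7% and 6.39% of all genes were called lower and higher, and the members' median was 0.14. With the length trend removed 0 members were lower and 2 higher (Elovl3 and Agpat1), where 8.16% and 9.92% of genes were called lower and higher.

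**Figure D2:**
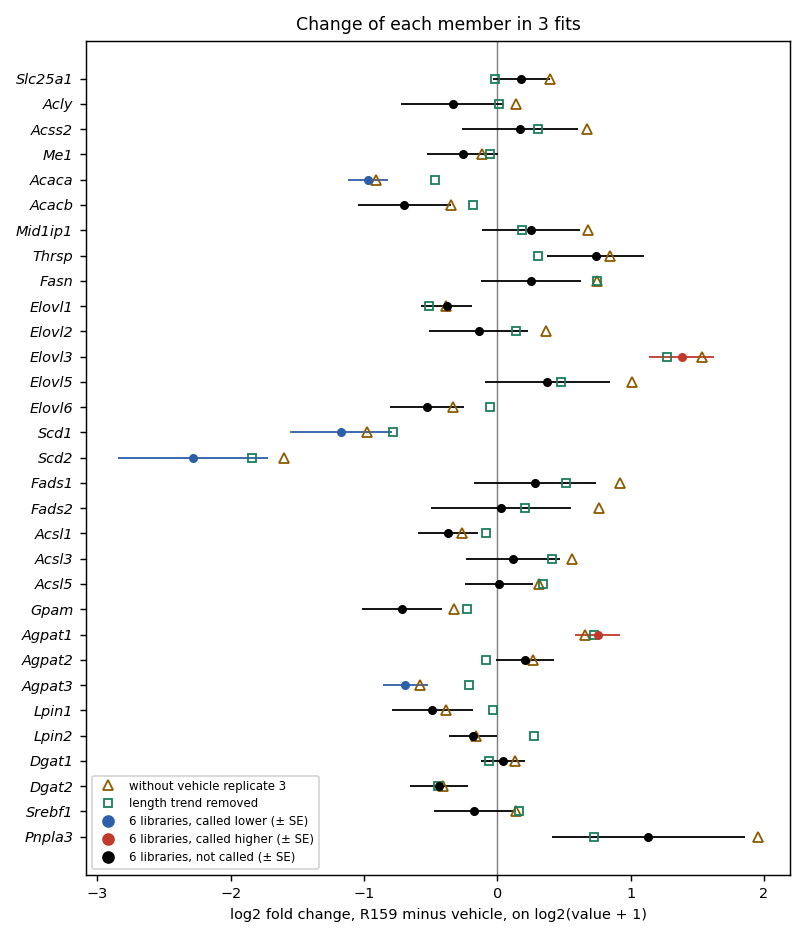
The log2 fold change of each member (x axis, R159 minus vehicle) with its SE over the 6 libraries (filled circles), without vehicle replicate 3 (triangles) and with the length trend removed (squares). Scd2 is farthest to the left in the fit of 6 libraries (-2.28), Elovl3 farthest to the right (1.38), and the triangles of Elovl5, Fads1 and Fads2 lie well to the right of their circles.

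Promoter windows of a few members are shown as examples, picked after the members' values were seen. RefSeq windows (build GRCm38.p6, 250 bases before to 50 after a start) matched 25 of the 31 members with 35 windows. Each was searched on both strands for CCAAT, the letters of the NF-Y box that often stands beside SREBP sites, for TCACNCCAC, a form of the sterol response element, and for CACGTG, an E-box. TCACNCCAC can share its last letters with either of the others. CCAAT was in 18 of the 35 member windows, in 17 genes, and in 37.4% of all 32851 windows. TCACNCCAC was in 1 member window, of Acsl1, and in 1.24% of all windows. CACGTG was in 3 member windows (Elovl5, Lpin2 and Slc25a1) and in 7.15% of all. A match is a description of the letters and not a shown site. Below are Fasn and Elovl5, whose R159 libraries lay between vehicle replicates 1 and 2 and vehicle replicate 3. Acaca, whose R159 libraries lay below all vehicle libraries, is also shown. These windows do not stand for the other members with those orders. Of the members placed like Fasn, Slc25a1, Acsl3 and Acsl5 also have a CCAAT match. Elovl2, Fads2 and Mid1ip1 have no match of any motif, and Fads1 has no window. Of those below vehicle like Acaca, Gpam has a CCAAT match in 1 of its windows and Agpat3 has no match. Scd1 and Scd2 have no window. Whether the letters go with either order was not tested. Capitals mark the matches in the windows shown. Fasn has 3 CCAAT matches, which begin 90, 62 and 59 bases before the start, and the last 2 run into each other. Elovl5 has 2 CCAAT matches and 1 CACGTG match. The Acaca window, the only window matched for that gene, has none of the 3 motifs. Any other start of Acaca was not searched, so its promoters may still hold these letters. In the labels below, promoter means only a window around an annotated start and not a shown promoter.
Fasn promoter, chr11:120824498-120824797, minus strand: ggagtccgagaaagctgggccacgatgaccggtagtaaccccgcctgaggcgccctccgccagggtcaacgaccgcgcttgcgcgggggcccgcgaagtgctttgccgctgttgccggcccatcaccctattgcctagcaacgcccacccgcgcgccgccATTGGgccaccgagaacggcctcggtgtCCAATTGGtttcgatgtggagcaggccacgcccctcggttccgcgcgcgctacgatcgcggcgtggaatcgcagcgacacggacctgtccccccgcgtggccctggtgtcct
Elovl5 promoter, chr9:77917115-77917414, plus strand: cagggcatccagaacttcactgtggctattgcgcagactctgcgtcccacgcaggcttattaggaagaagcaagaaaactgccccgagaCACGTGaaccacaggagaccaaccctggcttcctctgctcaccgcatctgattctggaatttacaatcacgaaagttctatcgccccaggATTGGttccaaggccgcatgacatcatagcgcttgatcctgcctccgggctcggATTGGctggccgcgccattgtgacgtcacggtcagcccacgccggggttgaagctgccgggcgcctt
Acaca promoter, chr11:84195188-84195487, plus strand: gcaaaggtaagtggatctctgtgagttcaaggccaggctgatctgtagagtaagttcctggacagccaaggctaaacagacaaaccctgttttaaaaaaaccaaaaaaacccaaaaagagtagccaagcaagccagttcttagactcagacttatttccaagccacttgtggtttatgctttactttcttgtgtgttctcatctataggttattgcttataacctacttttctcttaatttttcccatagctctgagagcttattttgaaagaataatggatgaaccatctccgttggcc

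The supply of acetyl-CoA and NADPH for synthesis was not called at any of its 4 genes. Slc25a1, the carrier that exports citrate from the mitochondrion, was at 12966, 14180 and 15976 in R159 replicates 1 to 3 and at 11228, 10506 and 17119 in vehicle replicates 1 to 3 (log2 fold change 0.18, limma adjusted p = 0.553; 0.40 without vehicle replicate 3). All R159 values lay above vehicle replicates 1 and 2 and below vehicle replicate 3. Acly, the ATP-citrate lyase that yields cytosolic acetyl-CoA, was at 12927, 7415 and 12406 in R159 and at 9486, 9711 and 25918 in vehicle (-0.34, limma adjusted p = 0.542; 0.14 without vehicle replicate 3). Acss2, which makes acetyl-CoA from acetate, was at 7614, 4347 and 10448 in R159 and at 4532, 4274 and 12468 in vehicle (0.17, limma adjusted p = 0.791; 0.67 without vehicle replicate 3). Both had vehicle replicate 3 as their highest library, at 2.7 and 2.83 times the mean of the other vehicle libraries. Me1, the malic enzyme that supplies NADPH, ranged from 9177 to 18951 in R159 and from 13980.2 to 19190.2 in vehicle (-0.26, and -0.12 without vehicle replicate 3).

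At the malonyl-CoA step the cytosolic carboxylase Acaca fell, and Acacb, Thrsp and Mid1ip1 were not called. Acaca, which encodes acetyl-CoA carboxylase 1, the enzyme that feeds fatty acid synthesis, was at 4202, 3799 and 4657 in R159 and at 8169, 7620.0 and 8976 in vehicle. Every R159 library lay below every vehicle library, and the vehicle mean was 1.96 times the R159 mean. The log2 fold change was -0.97 (SE 0.15, limma adjusted p = 0.00468). It was -0.91 without vehicle replicate 3 (limma adjusted p = 0.0227), and -0.47 and not called with the length trend removed (limma adjusted p = 0.0806). Its longest coding transcript is 9513 nt.

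Acacb, the carboxylase of the outer mitochondrial membrane whose malonyl-CoA restrains fatty acid oxidation, was at 4223, 1876 and 3011 in R159 and at 3825, 3518 and 7558 in vehicle. The groups overlapped (-0.70, limma adjusted p = 0.163; -0.35 without vehicle replicate 3). Thrsp and Mid1ip1, which encode Spot 14 and its relative MIG12, are small proteins that act together on acetyl-CoA carboxylase. Thrsp was at 19337, 28119 and 50321 in R159 and at 23174, 12152 and 20909 in vehicle (0.74, limma adjusted p = 0.156). Its log2 fold change was 0.37 without R159 replicate 3, 0.45 without vehicle replicate 2 and 1.06 without R159 replicate 1, and with sample weights it was called higher (1.28, limma adjusted p = 0.0318). Its highest library was R159 replicate 3, unlike most members. Mid1ip1 was at 3504, 4815 and 6926 in R159 and at 2817, 3316 and 7377 in vehicle (0.25, limma adjusted p = 0.63; 0.68 without vehicle replicate 3), and an antisense gene in the annotation covers 25.5% of its exon bases.

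Fasn, the multidomain synthase that makes palmitate, was at 43316, 45898 and 48784 in R159 and at 29613, 25364 and 76437 in vehicle. The R159 values were close together and lay in the gap between vehicle replicates 1 and 2 below and vehicle replicate 3 above. The means were 45999 ± 2736 and 43804 ± 28340.4 (SD, n = 3 each), with a log2 fold change of 0.25 (SE 0.37, limma adjusted p = 0.641). Without vehicle replicate 3 it was 0.75 (limma adjusted p = 0.062). Fasn carries the longest transcript of the members (10050 nt), and its log2 fold change with the length trend removed was also 0.75 (limma adjusted p = 0.196).

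Of the 5 elongases, Elovl3 rose and the other 4 were not called. Elovl3, which elongates saturated and monounsaturated very long acyl chains and is known in mouse liver for a higher level in males and a daily rhythm, was at 8157, 7199 and 12561 in R159 and at 2702, 3592 and 4280 in vehicle. All R159 libraries lay above all vehicle libraries, the R159 mean was 2.64 times the vehicle mean, and R159 replicate 3 was the highest. The log2 fold change was 1.38 (SE 0.25, limma adjusted p = 0.0062). It remained called without vehicle replicate 3 (1.54, limma adjusted p = 0.0176) and with the length trend removed (1.27, limma adjusted p = 0.0116). Leaving out each library in turn gave 1.15 to 1.55, called each time.

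Elovl5 and Elovl2, which extend polyunsaturated chains, followed the order seen for Fasn. Elovl5 was at 40593, 55584 and 37146 in R159 and at 21661, 21848 and 81446 in vehicle (0.37, SE 0.47, limma adjusted p = 0.577). The first 2 vehicle libraries agree within 1.01 times while the third was 3.74 times their mean. Without that library Elovl5 was called higher in R159 (1.01, limma adjusted p = 0.0372). Elovl2 was at 19287, 17409 and 20740 in R159 and at 14095, 15566 and 42439 in vehicle (-0.14, limma adjusted p = 0.804), and its sign turned without vehicle replicate 3 (0.37, limma adjusted p = 0.237). Elovl6, which takes palmitate to stearate, was at 2461, 4377 and 4688 in R159 and at 5324, 4065 and 6982 in vehicle (-0.53, limma adjusted p = 0.185; -0.33 without vehicle replicate 3). Elovl1, an elongase of saturated very long chains, was even in vehicle (2901 to 3021) and lay between 1789 and 2944 in R159 (-0.38, limma adjusted p = 0.168); without R159 replicate 3 it was called lower (-0.57, limma adjusted p = 0.0457).

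Among the desaturases, both delta-9 enzymes, Scd1 and Scd2, fell, and the delta-5 and delta-6 enzymes, Fads1 and Fads2, were not called over the 6 libraries. The difference between the 2 kinds was not tested. Scd1, which makes oleate from stearate and is the main stearoyl-CoA desaturase of mouse liver, was at 185033, 182901 and 315639 in R159 and at 475159, 394873 and 654785 in vehicle. The groups did not overlap, and the vehicle mean was 2.23 times that of R159 (a change of -1.17, SE 0.38, limma adjusted p = 0.049). The call is at the edge of the threshold. It was lost without vehicle replicate 3 (-0.98, limma adjusted p = 0.149), without R159 replicate 1 or 2 or vehicle replicate 1 or 2 (limma adjusted p = 0.0961, 0.125, 0.11 and 0.102), and with the length trend removed (-0.78, limma adjusted p = 0.145). Per kilobase of transcript Scd1 was the highest member in vehicle, at 105189 per kb.

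Scd2, the paralog that serves mainly tissues other than the adult hepatocyte, was at 188, 140 and 384 in R159 and at 596, 726 and 2714 in vehicle. The groups did not overlap, with vehicle replicate 3 far above all other libraries, and the vehicle mean was 5.67 times the R159 mean (-2.28, SE 0.56, limma adjusted p = 0.0189). Without vehicle replicate 3 the log2 fold change was -1.60 (limma adjusted p = 0.0403). Without R159 replicate 2 (-1.97, limma adjusted p = 0.0652) and with the length trend removed (-1.84, limma adjusted p = 0.05002) it was not called. Per kilobase Scd2 stood at 247 in vehicle and 43.5 in R159. How reads that fit several Scd genes were divided is not given in the sources used here, so the level of Scd2 is uncertain beside the far higher Scd1. Markers of other liver cells were also read. The stellate cell sums overlapped between the groups. The cholangiocyte sums overlapped only narrowly, between R159 replicate 3 (4141.33) and vehicle replicate 3 (4139.96). Of 10 stellate cell and fibroblast markers 4 fell and 0 rose, and their sum was 13930.5 to 29885 in R159 and 21003 to 37464 in vehicle. Of 6 cholangiocyte markers 5 were tested, of which 0 fell and 1 rose (Krt7). The sum of the 6 was 2052 to 4141 in R159 and 4140.0 to 12107 in vehicle. Most of the cholangiocyte sum is Spp1, at 1595 to 3162 in R159 and 3384 to 11470.4 in vehicle and not called (limma adjusted p = 0.0541). The groups of Spp1 did not overlap (log2 fold change -1.26). It was called lower with the length trend removed (limma adjusted p = 0.0282) and without vehicle replicate 3 (limma adjusted p = 0.0327). Sox9, Epcam and Krt19 were not called, at -0.94, -0.67 and 0.98. In vehicle replicates 1 to 3 the stellate cell sum was 37464, 21003 and 28795, and the cholangiocyte sum was 12107, 5882 and 4140.0. The macrophage sum was 18400, 24096 and 16157 in these libraries, and the endothelial sum 6877, 8968 and 9453. The part of these cell types in the Scd2 result was not tested.

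Fads1 and Fads2, the neighbouring genes for the delta-5 and delta-6 desaturases of polyunsaturated fatty acids, were widely split within vehicle. Fads1 was at 34656, 30563 and 39396 in R159 and at 18682, 17951 and 68943 in vehicle (0.28, SE 0.46, limma adjusted p = 0.671). Fads2 was at 38269, 37577 and 40770.4 in R159 and at 25863, 20186 and 105956 in vehicle (0.03, SE 0.52, limma adjusted p = 0.974). In both genes the R159 libraries lay together, above vehicle replicates 1 and 2 and far below vehicle replicate 3, which was 3.76 and 4.60 times the mean of the other vehicle libraries. Without it Fads1 was called higher in R159 (0.92, limma adjusted p = 0.033), and Fads2 stood just outside the threshold (0.77, limma adjusted p = 0.0578).

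**Figure D3:**
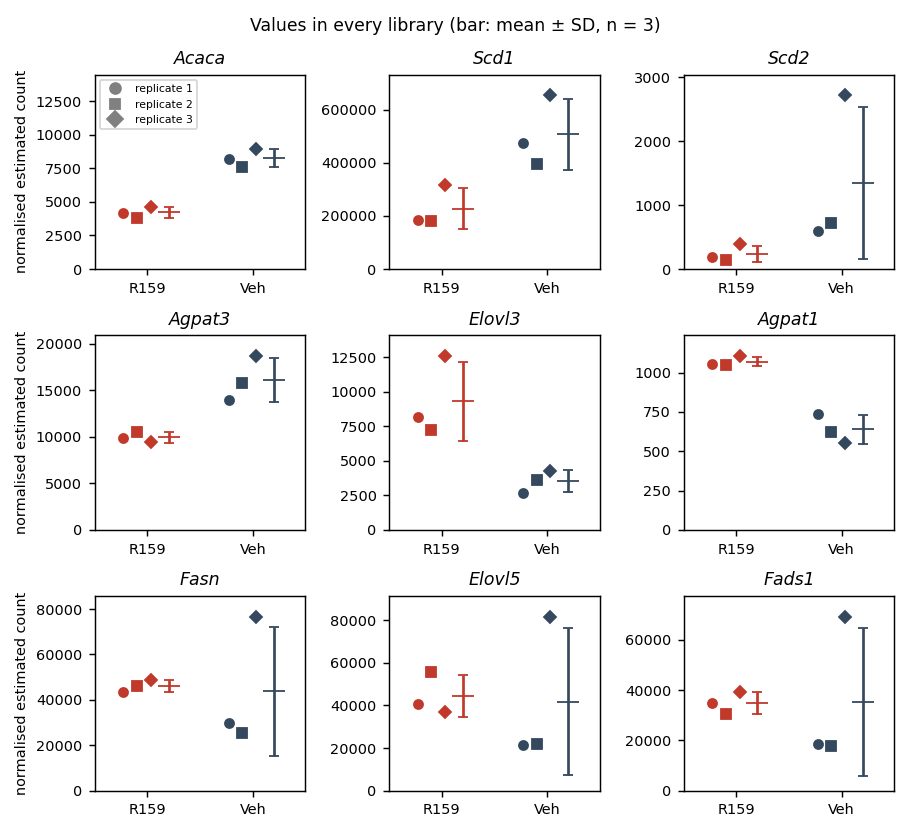
Normalised estimated counts (y axes, each starting at 0) of 9 members in every library, with a different symbol for each replicate and the mean ± SD of 3 libraries beside them. In the top row and the left panel of the middle row the R159 points lie below the vehicle points, in Elovl3 and Agpat1 above them, and in Fasn, Elovl5 and Fads1 between vehicle replicates 1 and 2 and vehicle replicate 3.

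The order shown by Fasn, with all R159 libraries above vehicle replicates 1 and 2 and below vehicle replicate 3, was found in 9 members: Slc25a1, Mid1ip1, Fasn, Elovl2, Elovl5, Fads1, Fads2, Acsl3 and Acsl5. Among all genes tested, 0.512% had it. The order was chosen for counting after the values were seen. Insig1, which retains the SREBP escort in the endoplasmic reticulum and is itself an SREBP target, also had it, and is named here after its values were seen: 21447, 16421 and 23858 in R159, and 7439, 7307 and 30944 in vehicle (0.77, limma adjusted p = 0.265; 1.46 and 0.0151 without vehicle replicate 3).

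**Figure D4:**
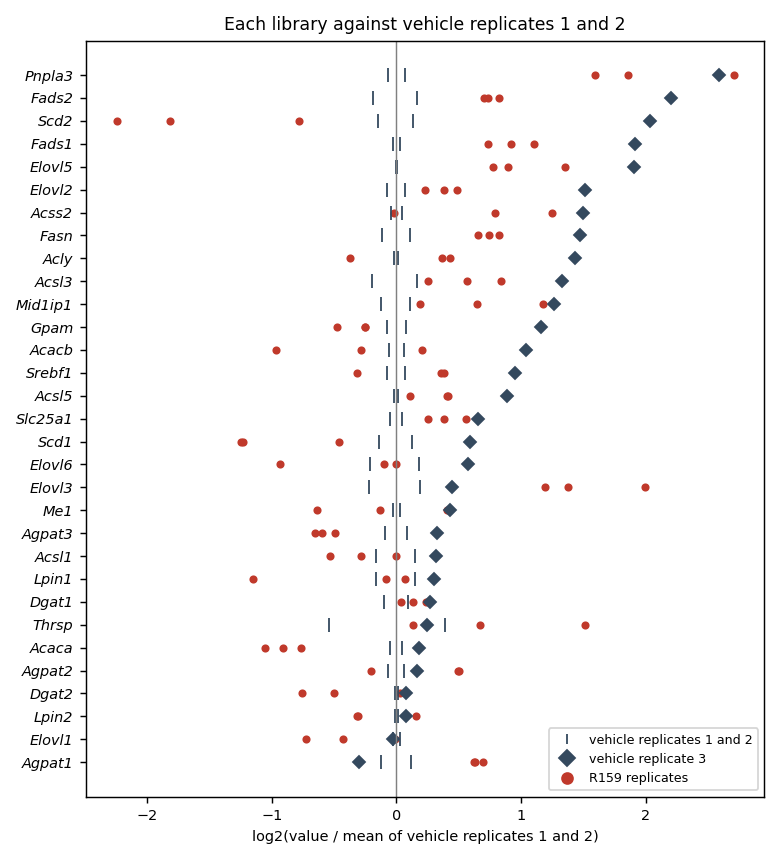
Each library's value for each member (rows) over the mean of vehicle replicates 1 and 2, on a log2 axis, sorted by vehicle replicate 3. Vehicle replicates 1 and 2 (ticks) stay near 0 in most rows, vehicle replicate 3 (diamonds) reaches 4.60 times their mean in Fads2 and 6.01 times in Pnpla3, and the R159 libraries (circles) fall between them in 9 members and below all vehicle libraries in 5.

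The acyl-CoA synthetases, which activate free fatty acids for esterification or oxidation, were not called. Acsl1, the main form of liver, was at 34335, 40740.2 and 49533 in R159 and at 44259, 54922 and 61747 in vehicle (-0.37, limma adjusted p = 0.246). Acsl5 was at 16625, 20325 and 20503 in R159 and at 15546, 15201 and 28506 in vehicle (0.01, limma adjusted p = 0.974; 0.31 without vehicle replicate 3). Acsl3, a form found on nascent lipid droplets, ranged from 1323 to 1979 in R159 and from 970 to 2783 in vehicle (0.12, limma adjusted p = 0.825; 0.56 without vehicle replicate 3).

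On the way from glycerol-3-phosphate to diacylglycerol, 1 of 6 genes fell and 1 rose. Gpam, the mitochondrial glycerol-3-phosphate acyltransferase that starts the route, was at 13564, 11600.2 and 13572 in R159 and at 17027, 15320.3 and 36247 in vehicle. The groups did not overlap, yet the gene was not called (-0.72, SE 0.30, limma adjusted p = 0.107), and without vehicle replicate 3 the log2 fold change was -0.33 (limma adjusted p = 0.278). With quantile normalization it was called lower (-0.84, limma adjusted p = 0.0468). The acylglycerolphosphate acyltransferases, which make phosphatidic acid, went separate ways.

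Agpat3 was at 9851, 10558 and 9453 in R159 and at 13972, 15788 and 18667 in vehicle. Groups did not overlap, and the log2 fold change of Agpat3 was -0.69, with an SE of 0.17 (limma adjusted p = 0.0178). Without vehicle replicate 3 (-0.58, limma adjusted p = 0.0748), without vehicle replicate 2 (-0.70, limma adjusted p = 0.0758) and with the length trend removed (-0.21, limma adjusted p = 0.369) it was not called. Agpat1 was at 1058, 1047 and 1104 in R159 and at 738, 624 and 553 in vehicle. It was the only member whose lowest library was vehicle replicate 3, and it rose by a log2 fold change of 0.75 (SE 0.17, limma adjusted p = 0.0139). It kept the call with the length trend removed (0.73, limma adjusted p = 0.0187), and lost it without vehicle replicate 3 (0.65, limma adjusted p = 0.0599) or vehicle replicate 2 (0.74, limma adjusted p = 0.0657). Agpat2, the form needed for fat storage, was at 9547, 15494 and 15619 in R159 and at 11506, 10498 and 12364 in vehicle (0.21, limma adjusted p = 0.492), and was called higher without R159 replicate 1 (0.44, limma adjusted p = 0.0483).

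The lipins remove the phosphate to give diacylglycerol. Lpin1, which responds to fasting, was at 3833, 1827 and 4264 in R159 and at 4511, 3625 and 5028 in vehicle (-0.49, limma adjusted p = 0.253). Lpin2, the more abundant form here per kilobase (2772 against 786 in vehicle), ranged from 12309 to 17106 in R159 and from 15239 to 16171 in vehicle. Neither was called.

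The final acylation was not called at either of its enzymes. Dgat2, the acyltransferase tied to newly made fatty acids, was at 13354, 15916 and 22955 in R159 and at 22710.1, 22368 and 23786 in vehicle (-0.44, limma adjusted p = 0.159). R159 replicates 1 and 2 lay below all vehicle libraries and R159 replicate 3 within them, and without that library Dgat2 was called lower (-0.65, limma adjusted p = 0.0381), as it was with quantile normalization (-0.56, limma adjusted p = 0.04999). Dgat1, the unrelated enzyme with the same reaction, lay between 931 and 1071 in R159 and between 849 and 1098 in vehicle (0.04, limma adjusted p = 0.861; 0.14 without vehicle replicate 3).

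Srebf1, which encodes SREBP-1, was at 15877, 25243 and 25688 in R159 and at 18742, 20698 and 38083 in vehicle (-0.17, limma adjusted p = 0.695; 0.14 without vehicle replicate 3). The table has 1 row for the gene, so its 1a and 1c transcripts are not separated. Pnpla3, a droplet protein whose mRNA is under SREBP-1c, was the least abundant member, at 68.3, 31.6 and 38.0 in R159 and at 9.97, 10.95 and 62.8 in vehicle (1.13, SE 0.72, limma adjusted p = 0.268; 1.96 and 0.0722 without vehicle replicate 3). Its vehicle replicate 3 value was 6.01 times the mean of the other vehicle libraries, the largest such ratio among the members.

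Ratios of enzymes that share a step were taken within each library, for 10 pairs. With 3 libraries against 3 the smallest exact permutation p is 0.1, and adjusted over the 10 pairs none was below 0.333. The groups did not overlap for 3 pairs. The log2 ratio of Scd2 over Scd1 was -9.99 ± 0.34 in R159 and -8.88 ± 0.88 in vehicle (SD, n = 3 each, two-sided exact permutation p = 0.1). Agpat3 over Agpat2 was -0.41 ± 0.40 and 0.49 ± 0.18 (exact permutation p = 0.1), and Dgat1 over Dgat2 was -4.09 ± 0.30 and -4.57 ± 0.14 (exact permutation p = 0.1). With the length trend removed, the log2 fold changes were -0.21 for Agpat3 (5980 nt) and -0.083 for Agpat2 (1489 nt), so these 2 genes then lay close together. In that fit Scd2 and Scd1 stood at -1.84 and -0.78, and Dgat1 and Dgat2 at -0.066 and -0.44. The ratios were not tested again in that fit. For Acacb over Acaca the groups overlapped, with -0.55 ± 0.52 and -0.82 ± 0.49 (exact permutation p = 0.5), and for Fads1 over Fads2 they were -0.16 ± 0.13 and -0.42 ± 0.23 (exact permutation p = 0.2).

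**Figure D5:**
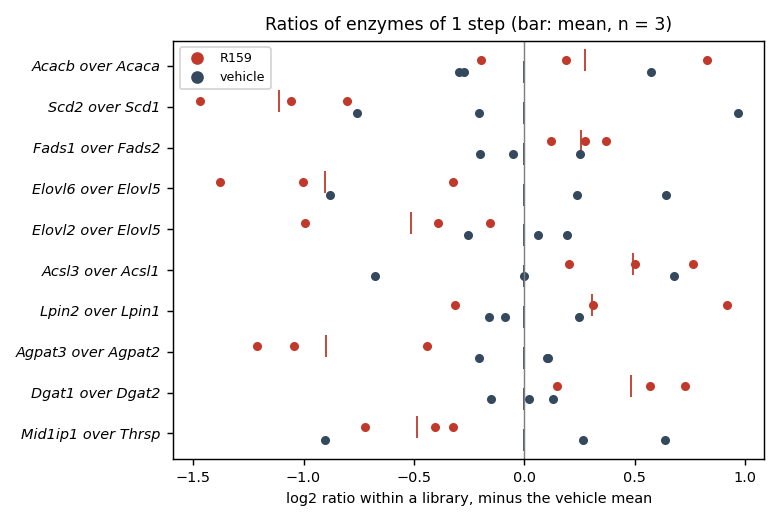
The log2 ratio of 2 enzymes of a step within each library, drawn as the difference from the vehicle mean of that pair (x axis), for 10 pairs (rows), with points for libraries and a bar for the mean of 3. R159 and vehicle points do not overlap for Scd2 over Scd1, Agpat3 over Agpat2 and Dgat1 over Dgat2.

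Other genes of lipid synthesis were read from 8 further lists, 110 tested genes in all, of which 30 fell (27.3%) and 13 rose (11.8%), beside 14.2% and 12.8% of all genes. With the length trend removed 16 of them were lower and 5 higher, where 8.16% and 9.92% of all genes in that fit were. Of 12 further genes of glycerolipid assembly, 4 fell and 0 rose. Gpd1, the cytosolic dehydrogenase that makes glycerol-3-phosphate, was at 20884, 21649 and 19363 in R159 and at 50939.6, 63538 and 43456 in vehicle. All R159 libraries lay far below all vehicle libraries, and the log2 fold change was -1.34 (SE 0.20, limma adjusted p = 0.00417; 0.00547 with the length trend removed and 0.0151 without vehicle replicate 3). Lclat1, a lysophospholipid acyltransferase, fell by 1.24, and Gpat3 and Gpat4, the glycerol-3-phosphate acyltransferases of the endoplasmic reticulum, by 0.88 and 0.64 log2 units (limma adjusted p = 0.00543, 0.0216 and 0.0361). Gpat3 and Gpat4 were not called with the length trend removed (limma adjusted p = 0.0536 and 0.516).

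Of 14 regulators of lipogenic transcription, 3 fell and 2 rose. Mlxipl, which encodes ChREBP, was at 37730.1, 25219 and 24157 in R159 and at 8601, 14378 and 8867 in vehicle (1.46, SE 0.26, limma adjusted p = 0.00595), and here vehicle replicate 3 lay with vehicle replicate 1. Rxra, the partner receptor of LXR, and Mbtps1 and Mbtps2, the proteases that release SREBP, fell by 0.87, 0.60 and 1.15 (limma adjusted p = 0.0117, 0.0211 and 0.0436). With the length trend removed none of these last 3 was called (limma adjusted p = 0.0664, 0.143 and 0.128). Of 9 genes of malonyl-CoA control, Prkaa2, the alpha2 catalytic subunit of AMPK, which inactivates acetyl-CoA carboxylase, fell by 1.14 (limma adjusted p = 0.00402), and Hlcs, which attaches biotin to carboxylases, by 0.88 (limma adjusted p = 0.0186), while 0 rose. Hlcs was not called with the length trend removed (limma adjusted p = 0.231).

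Of 16 enzymes of carbon and NADPH supply, 4 fell and 3 rose. Pgd of the pentose phosphate route fell by 0.88, and the subunits of the mitochondrial pyruvate carrier, Mpc1 and Mpc2, rose by 0.95 and 1.16 log2 units (limma adjusted p = 0.00437, 0.0191 and 0.00573). With the length trend removed the calls of Mpc1 and Mpc2 were lost (limma adjusted p = 0.350 and 0.0541). Of 11 further elongation and desaturation genes, 2 fell, Elovl7 and Fads6, and 2 rose, Fads3 and Cyb5a, the last being the electron donor of the desaturases (log2 fold changes -3.73, -0.66, 1.40 and 0.83, limma adjusted p = 0.0171, 0.0253, 0.0424 and 0.0447). With the length trend removed, Fads6 and Cyb5a were not called (limma adjusted p = 0.217 and 0.95). Of 15 genes of acyl-CoA handling, 5 fell and 3 rose. Among them Slc27a4, a fatty acid transport protein, fell by 1.07 and the acyl-CoA binding protein gene Dbi, the thioesterase gene Acot13 and the fatty acid binding protein gene Fabp1 rose by 1.59, 1.40 and 1.46 log2 units (limma adjusted p = 0.00515, 0.00611, 0.0079 and 0.0229). With the length trend removed 1 of these 15 genes was lower and 0 were higher.

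In the phospholipid branch, which draws on the same diacylglycerol, 4 of 17 genes fell and 2 rose. Pcyt1a, the rate-setting enzyme of phosphatidylcholine synthesis, was at 2762, 1927 and 2121 in R159 and at 6256, 6251 and 6809 in vehicle (-1.52, SE 0.17, limma adjusted p = 0.00311). The groups were far apart and the vehicle libraries close together. Pcyt2, its counterpart for phosphatidylethanolamine, and Chkb, a choline and ethanolamine kinase, rose by 1.17 and 1.24 log2 units (limma adjusted p = 0.00722 and 0.00476), and all 3 remained called with the length trend removed. Selenoi, the ethanolamine phosphotransferase, fell by 0.87 (limma adjusted p = 0.00955; 0.101 with the length trend removed). Of 16 genes of triglyceride hydrolysis and export, 6 fell and 1 rose. The 4 of smallest p were Ces1g, Lipa, Apob and Hsd17b13, at -0.97, -0.90, -1.10 and -0.84 log2 units (limma adjusted p = 0.00517, 0.00573, 0.0153 and 0.0156). Apob, the structural protein of VLDL, was not called with the length trend removed (limma adjusted p = 0.103).

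Without vehicle replicate 3, 11 of the further genes named above were not called: Rxra, Mbtps1, Mbtps2, Hlcs, Fads6, Cyb5a, Fabp1, Gpat3, Gpat4, Apob and Hsd17b13 (limma adjusted p from 0.0505 to 0.130). Their fold changes stayed near those of the 6 libraries: Apob was at -1.10 in both fits, Mbtps2 at -1.15 and then -1.11, Cyb5a at 0.83 and then 0.86, and Gpat4 at -0.64 and then -0.52. Among all genes, 6.7% were called lower and 6.39% higher from these 5 libraries, beside 14.2% and 12.8% from all 6. Leaving out R159 replicate 1 instead gave more calls, 2909 lower and 2516 higher against 2354 and 2125. Leaving out any other library gave fewer. Why the 11 genes lost their calls was not tested, and fits without the other libraries are not given for them.

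Marker lists gave these values beside the members. Of 12 hepatocyte markers 1 fell and 2 rose, with summed levels of 5439380 to 9035370 in R159 and 4376310.0 to 6453970 in vehicle. Of 10 adipocyte markers, 5 were analysed here, of which 0 fell and 2 rose; Fabp4 was at 1066 to 3092 in R159 and 958 to 1488 in vehicle, and the sum (127555 to 135389 and 57012 to 88380.0) is mostly Pck1, which hepatocytes also express. Of 10 macrophage markers 3 fell and 0 rose (sums of 12899 to 16572 and 16157 to 24096), of 8 endothelial markers 2 fell and 0 rose (5674 to 7795 and 6877 to 9453), and of 7 erythroid markers 0 fell and 5 rose (40775 to 59953 and 12936 to 21824). After removal of the length trend, 5 macrophage, 2 stellate cell and 0 endothelial markers were lower and 2 erythroid markers higher, and without vehicle replicate 3 these counts were 5, 2, 1 and 4. Of the cholangiocyte markers 1 was lower and 1 higher with the length trend removed, and 1 lower and 0 higher without vehicle replicate 3. The part of these markers in the members' results was not tested.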

How the data were processed

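Poly(A) RNA of 6 liver samples was made into stranded libraries and sequenced as paired reads (per the labels' protocols). The build mm39 is named in the submitters' processing notes, which also name, without saying what each was used for, STAR 2.7.8a, cutadapt, R 4.2.3, FastQC 0.11.9 and DESeq2 (version written as 3.5). No counter, annotation, gene filter or strand setting is given in the sources used here, so overlapping and antisense genes may share reads. Each deposited table holds 18720 rows (18705 distinct gene symbols, 14 of them listed more than once) with 1 signal value each: judged by its numbers, an estimated count that the authors had divided by a single factor for the whole sample. Low values fell on multiples of 1 step per library, which gave the depth. Of the values under 200 reads, 67.8% to 76.0% were whole within 0.02 reads, and for want of whole counts no count-based test was made.

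The test was limma 3.58.1 under R 4.3.3, on log2(value + 1), with a trended eBayes prior and no term but group, over the 16594 genes with a mean of at least 10. Low genes have their change understated on this scale. Counting error, which depends on depth, was not separated from the spread between libraries for any member. Transcript lengths (the longest coding transcript) came from an annotation of another mouse build, GENCODE M21, for 95.5% of tested genes, and promoters from RefSeq. The length trend was removed per library with a lowess curve (span 0.3), and that fit left out genes with no length. Log2 ratios were compared by exact permutation (scipy 1.17.1), and figures drawn with matplotlib 3.10.9.

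The members, the lists and the tests were chosen with earlier results of these data known. All members are named; from each further list the text names the called genes of smallest p, at most 4, with exceptions stated; 1 gene that this rule names is not reported here. The counts that turn on vehicle replicate 3 were chosen after its values were seen. The method was tested on simulated data. The labels do not state whether replicate numbers pair the samples, and the main test used no pairing.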

Additional observations from a re-analysis of the deposited data

How the results depend on the processing

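The results were recomputed with 3 other scalings, a pseudocount of 0.5 or of 8, without the filter or with a minimum mean of 50 (which leaves out Pnpla3), eBayes without trend or robust, sample weights, a replicate block, the length trend removed, coding genes alone, and without each library. Members called lower went from 4 to 0 with the length trend removed, and to between 2 and 6 when a library was left out (2 without R159 replicate 2, vehicle replicate 2 or vehicle replicate 3). Quantile normalization called 6 lower, adding Gpam and Dgat2, and sample weights called 3 higher, adding Thrsp. Members called higher ranged from 1 (without vehicle replicate 2) to 3. All genes called lower were 2354, and 1443 without the eBayes trend, 1293 with the length trend removed and 923 to 2909 with a library left out; those called higher were 2125, and 918 to 2516 with a library left out. Upper quartile scaling shifted the median of all genes to 0.12 and called 1693 lower and 2694 higher, and scaling without the 20 highest genes shifted it to -0.11, with 2495 and 1501. The members' median of -0.14 became 0.17 with sample weights and -0.30 to 0.14 with a library left out. Under the replicate block 4 members were lower and 2 higher. Same-numbered libraries correlated in their deviations at -0.098, 0.031 and 0.11, and R159 replicates 1 and 2 did not correlate best with their own number. With 3 libraries in each group, these values cannot show whether the samples were paired.

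Scd1 was also not called with upper quartile scaling (limma adjusted p = 0.0792), a pseudocount of 8 (0.0571), no filter (0.0594) or sample weights (0.124), and Scd2 without the eBayes trend (0.062). Changes of sign touched members that were not called over the 6 libraries. With the length trend removed the log2 fold changes became -0.018 (Slc25a1), 0.014 (Acly), 0.14 (Elovl2), -0.083 (Agpat2), 0.28 (Lpin2), -0.066 (Dgat1) and 0.16 (Srebf1). With sample weights they were 0.17 (Elovl2) and 0.073 (Srebf1). Scaling without the 20 highest genes gave -0.082 (Fads2), -0.097 (Acsl5) and -0.065 (Dgat1), and quantile normalization -0.064 (Fads2) and -0.16 (Acsl5). With a library left out they ranged from -0.58 to 0.14 (Acly), -0.11 to 0.67 (Acss2), -0.017 to 0.68 (Mid1ip1), -0.050 to 0.75 (Fasn), -0.43 to 0.37 (Elovl2), -0.049 to 0.92 (Fads1), -0.43 to 0.77 (Fads2), -0.20 to 0.56 (Acsl3), -0.14 to 0.31 (Acsl5), -0.049 to 0.14 (Dgat1) and -0.37 to 0.14 (Srebf1), and the differences in log2 ratio from -0.0040 to 0.56 (Acacb over Acaca) and -0.0018 to 0.62 (Lpin2 over Lpin1). The cause of these changes was not tested.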
